A study of Mus musculus with 15 samples.

Results

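The 90 mouse genes described here are nuclear genes named for subunits of the mitochondrial respiratory chain and ATP synthase. They were chosen by gene symbol alone from the 54532 identifiers of the bulk count table, so the set is not a checked list of subunits. By symbol they comprise 41 complex I genes, with Ndufa4 among them, 4 complex II genes, 8 complex III genes, 19 complex IV genes and 18 ATP synthase genes. By annotation 86 are protein coding and 4 are processed pseudogenes (Cox6c2, Ndufa11b, Ndufb4c and Ndufs6b), and 86 of the 90 are among the 32285 genes of the single-cell matrices.

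The respiratory chain passes electrons from NADH and succinate through complexes I to IV to oxygen and pumps protons across the inner mitochondrial membrane, and ATP synthase uses that gradient to make ATP. Most subunits are encoded in the nucleus and imported, while a small core is encoded in mitochondrial DNA (mtDNA). Autophagy clears worn mitochondria, and brain tissue, neurons above all, depends on oxidative phosphorylation.

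The tested mice, called cKO here, carried floxed Atg7 alleles (ATG7FF) and Cx3cr1CreER, a tamoxifen-inducible Cre inserted in the Cx3cr1 locus of microglia and related macrophages. Control mice carried ATG7FF without Cre, so the Cre insertion and the loss of Atg7, an autophagy enzyme, cannot be told apart. The background strain was C57BL/6, tamoxifen (1.5 mg) was given when mice were 2 months old, and tissue was taken 6 months later, at 8 months. Bulk RNA-seq covered forebrains of 7 cKO and 6 control samples, which all carried 5xFAD, human transgenes that drive amyloid deposition from a neuronal promoter. Single-cell RNA-seq covered forebrain microglia without amyloid transgenes, sorted as CD11b-high and CD45-low, in 1 library pooled from 4 cKO forebrains and 1 pooled from 3 control forebrains. Whether every bulk library came from its own mouse is not stated in the labels, and the p-values reflect only how these samples spread, which may be technical.

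Bulk libraries held 16658707 to 22355512 counts. The cKO microglia library held 8874 cells past the filters, of which 7421 were microglia-like (median 4853 UMIs), and the control library 6243, of which 6221 were microglia-like (median 1392 UMIs). A further 15.1% of kept cKO cells and 0.0801% of kept control cells formed 1 cluster at 0.248 of their library's median UMIs, which stayed unnamed. The libraries shared 22 barcodes, 10 of them among microglia-like cells. Atg7 stood at 24.4 ± 1.32 CPM in cKO forebrains and 24.3 ± 2.09 CPM in control forebrains (SD, n = 7 and 6), and at 17.4 CPM in cKO microglia and 15.8 CPM in control microglia. Counts over the whole gene in whole forebrain, and tags from its 3′ end, do not check the deletion. All 18 microglia markers stood at 20 CPM or more in the sorted cells, and neuron markers summed to 4.39 CPM in cKO and 2.09 CPM in control microglia.

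Promoter windows are shown for 8 of the genes that the results below name. They are the isoform genes Cox6a1, Cox7a2 and Cox7a1 and the ATP synthase c-subunit genes Atp5g2 and Atp5g3. The others are Sdhd, Ndufb6 and Cox7b, the genes with the highest ratios and the lowest ratio in microglia. The part of these windows in the levels was not tested. Each window is the 250 bases before the RefSeq start (GRCm38.p6), written 5′ to 3′ on the gene's strand, and capitals mark any of 5 searched motifs on either strand. RefSeq starts can differ from those of GENCODE, the source of the gene positions below. The Atp5g2 window lies inside the GENCODE gene, which spans 102662864 to 102672352 on chromosome 15. The Cox6a1, Cox7a2 and Cox7a1 windows overlap the first bases of their GENCODE genes.
Cox6a1: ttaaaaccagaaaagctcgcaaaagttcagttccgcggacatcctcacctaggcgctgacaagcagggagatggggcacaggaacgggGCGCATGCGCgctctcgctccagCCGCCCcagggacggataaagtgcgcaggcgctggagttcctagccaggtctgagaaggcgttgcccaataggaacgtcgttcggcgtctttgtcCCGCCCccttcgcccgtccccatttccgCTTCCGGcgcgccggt
Cox7a2: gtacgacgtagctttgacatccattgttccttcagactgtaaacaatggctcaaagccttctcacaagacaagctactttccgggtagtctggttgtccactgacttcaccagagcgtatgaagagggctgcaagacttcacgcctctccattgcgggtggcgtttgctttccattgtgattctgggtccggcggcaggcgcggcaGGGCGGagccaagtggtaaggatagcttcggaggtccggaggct
Cox7a1: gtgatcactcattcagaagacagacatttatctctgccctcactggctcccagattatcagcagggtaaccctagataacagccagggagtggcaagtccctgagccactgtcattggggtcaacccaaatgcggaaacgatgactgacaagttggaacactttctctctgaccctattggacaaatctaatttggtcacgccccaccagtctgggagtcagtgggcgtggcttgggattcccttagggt
Atp5g2: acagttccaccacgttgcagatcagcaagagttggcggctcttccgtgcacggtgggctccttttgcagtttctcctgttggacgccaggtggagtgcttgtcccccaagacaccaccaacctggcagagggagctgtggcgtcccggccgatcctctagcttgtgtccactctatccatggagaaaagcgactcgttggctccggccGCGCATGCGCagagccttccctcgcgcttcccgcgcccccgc
Atp5g3: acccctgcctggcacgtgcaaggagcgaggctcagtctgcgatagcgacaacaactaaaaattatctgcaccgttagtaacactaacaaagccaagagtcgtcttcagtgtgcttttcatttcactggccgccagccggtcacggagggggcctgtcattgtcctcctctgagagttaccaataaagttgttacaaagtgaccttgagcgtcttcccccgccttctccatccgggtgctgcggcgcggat
Sdhd: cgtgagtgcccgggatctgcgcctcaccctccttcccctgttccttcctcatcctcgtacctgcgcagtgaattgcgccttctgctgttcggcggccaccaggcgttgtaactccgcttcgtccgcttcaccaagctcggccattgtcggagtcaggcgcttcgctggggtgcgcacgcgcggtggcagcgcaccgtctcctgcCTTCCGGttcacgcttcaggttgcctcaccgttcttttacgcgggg
Ndufb6: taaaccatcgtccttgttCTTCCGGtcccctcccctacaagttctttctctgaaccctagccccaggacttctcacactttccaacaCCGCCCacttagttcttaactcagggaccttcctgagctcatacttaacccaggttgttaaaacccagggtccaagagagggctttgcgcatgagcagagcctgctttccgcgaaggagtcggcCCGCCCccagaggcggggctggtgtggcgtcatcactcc
Cox7b: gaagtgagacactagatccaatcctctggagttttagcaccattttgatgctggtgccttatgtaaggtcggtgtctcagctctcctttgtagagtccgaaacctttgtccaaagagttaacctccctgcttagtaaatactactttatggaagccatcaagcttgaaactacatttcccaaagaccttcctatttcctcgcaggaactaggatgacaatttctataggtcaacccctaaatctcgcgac
The windows lie at chr5:115348959-115349208 (Cox6a1, minus strand), chr9:79759854-79760103 (Cox7a2, minus), chr7:30183921-30184170 (Cox7a1, plus), chr15:102671048-102671297 (Atp5g2, minus), chr2:73911327-73911576 (Atp5g3, minus), chr9:50603850-50604099 (Sdhd, minus), chr4:40279422-40279671 (Ndufb6, minus) and chrX:106015450-106015699 (Cox7b, plus).

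The RefSeq promoter table held 68 of the 90 genes. The core of the site for NRF1, a transcription factor known for driving respiratory chain genes, was searched as GCGCATGC and stood in 8 of the 68 windows (11.8%), against 2.26% of all 32851 promoters and 2.93% of the 21262 protein-coding ones. The core bound by ETS factors such as GABP (CCGGAAG) stood in 11 windows (16.2%), against 6.91% of all promoters and 8.98% of protein-coding ones. The YY1 core (ATGGCGG) stood in 3 windows (4.41%, against 2.21% of all and 2.58% of protein-coding promoters). The SP1 GC box (GGGCGG) stood in 25 (36.8%), above the 32.7% of all promoters and below the 42.6% of protein-coding ones, and the TATA box (TATAAA) in 7 (10.3%, against 12.4% of all and 11.6% of protein-coding promoters). Motifs were searched on both strands and could overlap each other. In Cox6a1 and Atp5g2 the NRF1 core was read on both strands of 1 palindromic stretch. The median number of CpG dinucleotides was 14 per window, against 6 over all promoters and 10 over protein-coding ones. It was 26 in Cox6a1 and 27 in Sdhd, 4 in Cox7a1 and 5 in Cox7b, and the lowest value was 1 in Cox8b. Cox8b and Cox7a1 are muscle-type isoforms; Ndufc2, a membrane-arm subunit of complex I, also had 4. A match describes letters in a window and not a site in use.

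In 5xFAD forebrain 84 genes passed the filter on low counts, and none passed the test for a difference between cKO and control. The edgeR quasi-likelihood test with Benjamini-Hochberg adjustment over all 16956 genes called 0 of the 84, against 0.33% of all genes tested (9 higher and 47 lower in cKO), and DESeq2 also called 0. At an unadjusted p under 0.05 the edgeR count was 1 of 84, against 7.71% of all genes. The 6 genes not tested were Cox6c2, Cox7b2, Cox8b, Cox8c, Ndufa11b and Ndufs6b, with 0 to 104 counts summed over the 13 libraries. In none of the 84 were the 7 cKO libraries all above or all below the 6 control libraries, against 0.442% of all genes. The log2 change, cKO minus control, was above 0 in 57 of 84 genes, against 50.6% of all genes, with a median of 0.03 against 0.00 for all genes.

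The intervals of these changes were narrow for most of the genes. The 95% interval lay within 1.5-fold in either direction for 76 of 84 genes and within 1.25-fold for 61, so it reached past these limits for the others, and the median standard error was 0.08 on the log2 scale. Complex I had 28 of 39 tested genes above 0 with a median of 0.04, complex II 4 of 4 with 0.06, complex III 6 of 8 with 0.04, complex IV 8 of 15 with 0.01 and ATP synthase 11 of 18 with 0.03. In bulk tissue, fewer cells of a type and less RNA per cell cannot be told apart. The summed microglia markers were 502 to 538 CPM in cKO and 757 to 916 CPM in control forebrains, with 14 of 18 called lower, and none of the markers of neurons, astrocytes or oligodendrocytes called. Summed neuron markers were 8119 to 8558 CPM in cKO and 8231 to 8701 CPM in control, astrocyte markers 4614 ± 184 CPM in cKO and 4888 ± 126 CPM in control, and oligodendrocyte markers 5016 ± 334 CPM in cKO and 5448 ± 123 CPM in control (SD, n = 7 and 6). The part of these cell types in the gene levels was not tested.

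**Figure D1:**
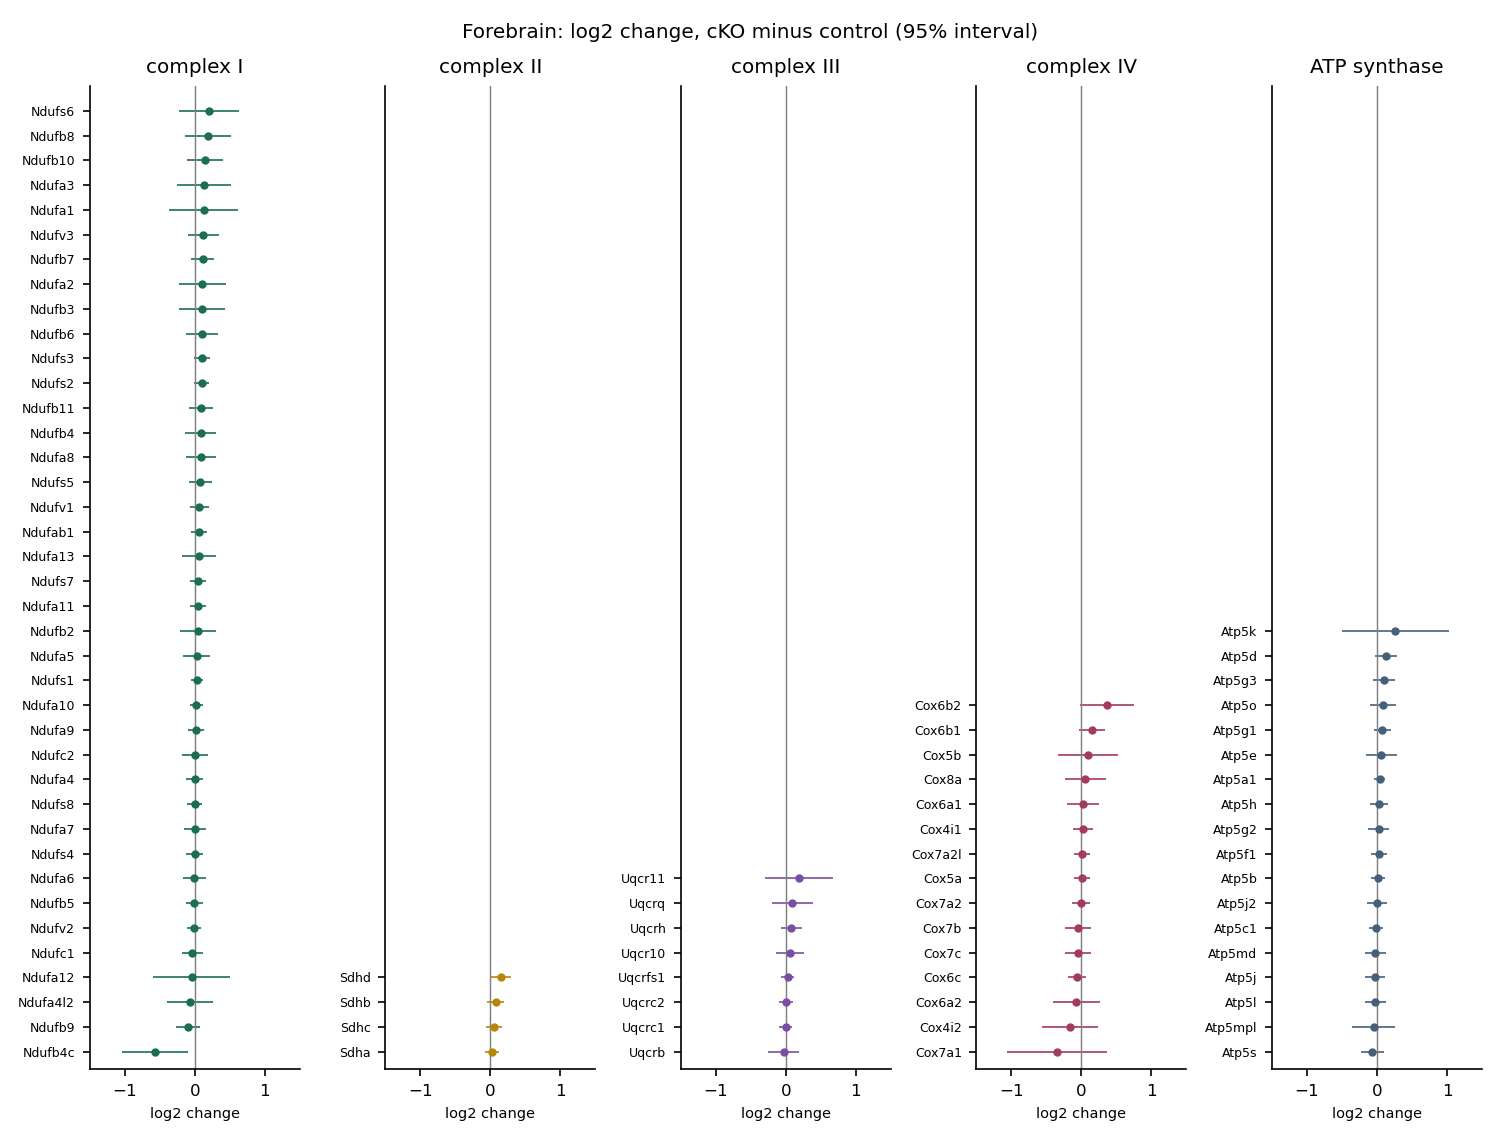
Log2 change in forebrain (cKO minus control) with its 95% interval from edgeR for the 84 tested genes, 1 panel per complex, genes sorted by value. All intervals but that of Ndufb4c cross 0, the lowest point is the pseudogene Ndufb4c at -0.57 and the highest is Cox6b2 at 0.37.

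The 5 large subunits, 1 per complex, had close levels in both genotypes. Ndufs1, the iron-sulfur subunit through which electrons leave the NADH-oxidising end of complex I (chromosome 1, 63143596 to 63176833), ran from 143 to 161 CPM in cKO libraries with a median of 149, and from 142 to 158 CPM in control libraries with a median of 147. Its log2 change was 0.03 ± 0.04 (SE; edgeR adjusted p = 0.883), and the ranges overlapped almost entirely. Sdha, the flavoprotein of complex II that oxidises succinate (chromosome 13, 74322254 to 74350280), ran from 372 to 460 CPM in cKO with a median of 409, and from 373 to 417 CPM in control with a median of 409 (log2 0.02 ± 0.05, SE, edgeR adjusted p = 0.937). Uqcrc1, a core protein of complex III (chromosome 9, 108936633 to 108949623), ran from 239 to 295 CPM in cKO with a median of 262, and from 251 to 278 CPM in control with a median of 260. Its log2 change of -0.01 ± 0.05 (edgeR adjusted p = 0.986) was the smallest in size of the 5.

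Cox4i1, the broadly expressed form of the largest nuclear subunit of complex IV (chromosome 8, 120668222 to 120674207), ran from 341 to 460 CPM in cKO with a median of 366, and from 302 to 400 CPM in control with a median of 374. Its highest value was in cKO 5 and its lowest in control 5, and the log2 change was 0.02 ± 0.07 (edgeR adjusted p = 0.953). Atp5b, the catalytic beta subunit of ATP synthase (chromosome 10, 128083273 to 128090391), ran from 1029 to 1324 CPM in cKO with a median of 1146, and from 1105 to 1169 CPM in control with a median of 1148 (log2 0.01 ± 0.05, edgeR adjusted p = 0.964). Its control libraries lay inside the range of the cKO libraries.

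The 4 genes with the smallest p were also examined library by library. Ndufb4c, annotated as a processed pseudogene related to a complex I subunit (chromosome 15, 73809507 to 73809896), had 1.17, 1.02, 1.62, 1.54, 1.17, 1.19 and 1.05 CPM in cKO libraries 1 to 7, and 1.90, 1.67, 1.28, 1.17, 3.26 and 1.88 CPM in control libraries 1 to 6. Control 5 stood highest and the groups overlapped. Its mean was 1.25 ± 0.233 CPM in cKO and 1.86 ± 0.75 CPM in control (SD, n = 7 and 6), a log2 change of -0.57 ± 0.23 with edgeR adjusted p = 0.578. Without control 5 the log2 change was -0.34. Reads of a processed copy can be shared with its parent gene, so this value is uncertain, and its parent family member Ndufb4 had a log2 change of 0.09 ± 0.11.

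Ndufs3, a core subunit of the ubiquinone-reducing part of complex I (chromosome 2, 90894634 to 90904827), had 70.6, 73.5, 72.8, 74.5, 85.4, 70.9 and 71.3 CPM in cKO libraries 1 to 7, and 74.8, 71.5, 67.5, 67.4, 64.1 and 67.7 CPM in control libraries 1 to 6. The cKO 5 library was highest, and control 1 lay above 6 of the 7 cKO libraries. The mean was 74.2 ± 5.17 CPM in cKO and 68.8 ± 3.75 CPM in control (SD, n = 7 and 6), a log2 change of 0.11 ± 0.05 with edgeR adjusted p = 0.657. Without cKO 5 it was 0.07. Its exons overlap Kbtbd4 on the opposite strand, and the strand setting of the counting is not given in the sources used here.

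Sdhd, a membrane anchor of complex II (chromosome 9, 50596357 to 50603812), had 58.4, 65.1, 70.0, 68.8, 80.6, 64.1 and 53.7 CPM in cKO libraries 1 to 7, and 62.5, 57.0, 59.2, 65.6, 54.2 and 57.5 CPM in control libraries 1 to 6. The cKO libraries held both the lowest and the highest value. The mean was 65.8 ± 8.67 CPM in cKO and 59.3 ± 4.11 CPM in control (SD, n = 7 and 6), a log2 change of 0.15 ± 0.07 with edgeR adjusted p = 0.659. Without cKO 5 it was 0.09. Cox6b2, the testis-enriched form of a small complex IV subunit (chromosome 7, 4751792 to 4753094), had 1.75, 2.75, 2.79, 2.60, 2.28, 2.38 and 2.06 CPM in cKO libraries 1 to 7, and 1.50, 2.45, 1.82, 2.30, 1.14 and 1.76 CPM in control libraries 1 to 6. The groups overlapped, with a log2 change of 0.37 ± 0.18 (edgeR adjusted p = 0.659).

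The forebrain libraries differed in these genes more within the cKO group than between the genotypes. The summed level of all 90 genes was 9174, 8728, 9385, 9887, 11130, 8729 and 8606 CPM in cKO libraries 1 to 7, and 9185, 9312, 9268, 9287, 8553 and 9321 CPM in control libraries 1 to 6. The mean was 9377 ± 895 CPM in cKO and 9154 ± 299 CPM in control (SD, n = 7 and 6), a ratio of 1.02 that is smaller than the spread within cKO. Without cKO 5 the cKO mean was 9085 ± 495 CPM (SD, n = 6), below the control mean. Of the 84 tested genes, 55 had their highest value in cKO 5 and 35 had their lowest in control 5. The same counts over all genes were not made, so the 55 and the 35 have no share to be read against. The log2(CPM + 0.5) of cKO 5 was above the mean over libraries in 78 of 84 genes, with a median deviation of 0.26, and that of cKO 4 in 75 of 84. The cKO 7 library was above the mean in 9 of 84 and control 5 in 20 of 84, with median deviations of -0.13 and -0.14. Over all genes these medians were within 0.01 of 0.

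Gene length and base composition moved with these libraries. The tested genes have a median exonic length of 1578 bases, against 4121 for all genes tested, and a median GC content of 50.2% against 49.6%. Across 16776 genes, the deviation of cKO 5 had a Spearman rho of -0.39 with exonic length and 0.52 with GC content, and that of control 5 had 0.23 and -0.49, as descriptions over genes of 1 library each. After each library was fitted on length and GC content, the median deviation of the 84 genes was 0.20 in cKO 5, 0.10 in cKO 4, -0.07 in cKO 7 and -0.10 in control 5. The mtDNA-encoded chain genes ran the other way: their sum was lowest in cKO 5 (29100 CPM) and highest in control 5 (41250 CPM).

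**Figure D2:**
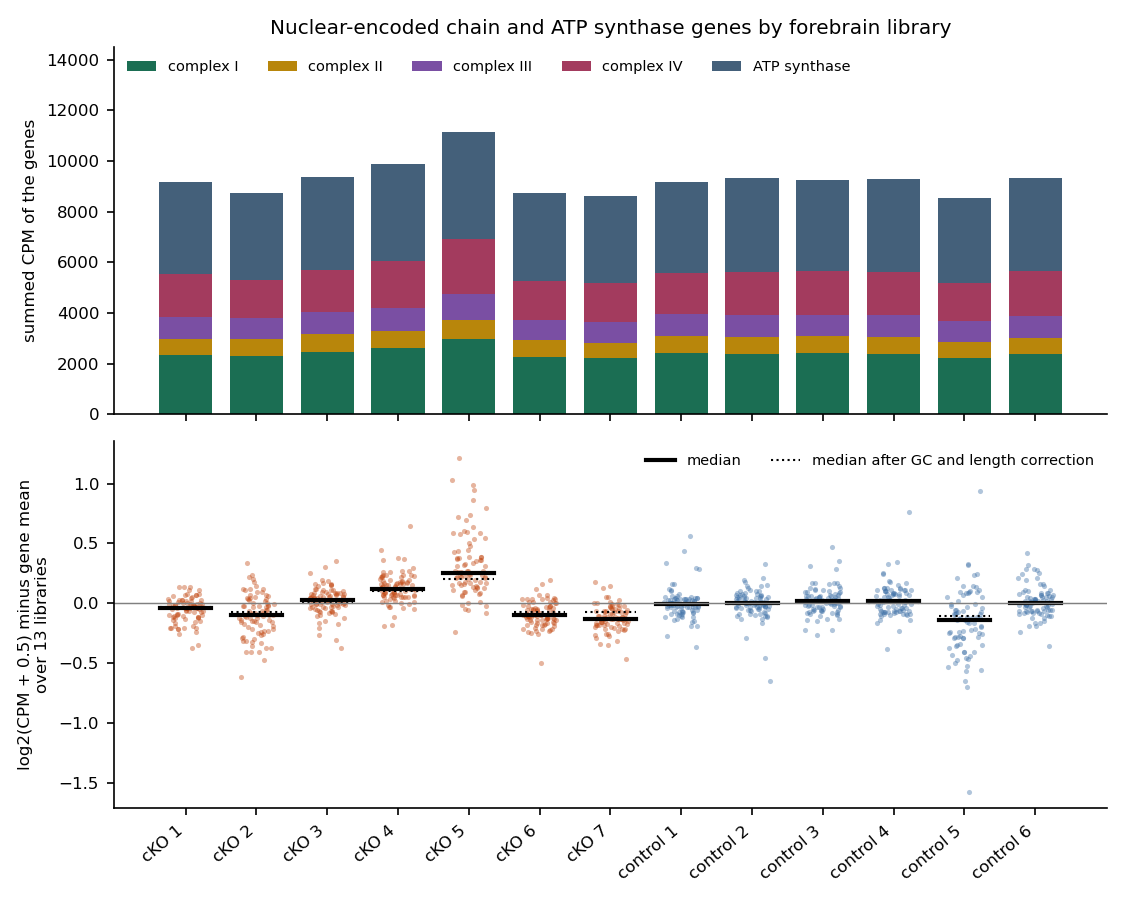
Upper panel, summed CPM of the 90 genes in each forebrain library, stacked by complex; lower panel, the deviation of log2(CPM + 0.5) from each gene's mean over the 13 libraries, 1 point per tested gene, with the median before (thick line) and after (dotted line) correction for GC content and length. The cKO 5 library stands highest at 11130 CPM and control 5 lowest at 8553 CPM, and all 5 complexes were highest in cKO 5 and, among control libraries, lowest in control 5.

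In sorted microglia, 77 genes had at least 20 CPM in 1 library, and of these 0 were 1.5-fold apart between the cKO and the control library, against 3.11% of all 6743 genes at that level. The ratio of cKO to control CPM was above 1 for 64 of 77, against 60.3% of all genes, with a median log2 ratio of 0.07 against 0.05 for all genes. Ratios ran from 0.870 (Cox7b) to 1.30 (Sdhd). Each genotype had 1 library, so these ratios carry no test or replicate check, and the 95% intervals cover counting error and not variation between mice. The interval lay above 1 for 31 of 77 genes (28.4% of all genes) and below 1 for 1, Cox7b (16.2% of all genes). Together the genes took 1.14% of UMIs in cKO and 1.07% in control microglia, a ratio of 1.07 (1.06 to 1.07).

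Over all cells past the filters, which adds the low-UMI cluster, 50 of 77 ratios were above 1 (61.6% of all genes) and the median log2 ratio was 0.03. With median-ratio scaling 46 of 77 were above 1 (49.6% of all genes) and the median was 0.02. Under that scaling the median of all genes was 0.00.

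The cKO to control ratio of the summed UMIs was 1.07 for complex I (1.06 to 1.09), 1.13 for complex II (1.08 to 1.17), 1.06 for complex III (1.04 to 1.09), 1.08 for complex IV (1.06 to 1.09) and 1.04 for ATP synthase (1.02 to 1.05). The ATP synthase interval included 1 over all cells past the filters (1.00, 0.991 to 1.02), with median-ratio scaling (1.00, 0.990 to 1.02) and among cells with at least 1000 genes (1.01, 0.991 to 1.04). Complex I took the largest share, 0.419% of UMIs in cKO and 0.390% in control, and complex II the smallest, 0.0361% in cKO and 0.0320% in control. The 13 mtDNA-encoded chain genes went the other way: they took 1.09% of UMIs in cKO and 1.27% in control, a ratio of 0.854 (0.849 to 0.860), with 2 of 13 ratios above 1. Within clusters the mtDNA ratio was 0.841 (0.823 to 0.859) in cluster 0 and 0.824 (0.775 to 0.875) in cluster 4, but 1.01 (0.938 to 1.09) in cluster 2 and 0.997 (0.972 to 1.02) in cluster 3, the cluster with most control cells.

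The 6 highest ratios came from complexes I, II and IV. Sdhd stood at 62.2 CPM (2364 UMIs) in cKO and 47.8 CPM (434 UMIs) in control, a ratio of 1.30 (1.17 to 1.45), and was also among the 4 smallest p in forebrain. Ndufb6, an accessory subunit of the complex I membrane arm, stood at 50.2 CPM in cKO and 39.9 CPM in control (1.26, 1.12 to 1.41). Cox7a2l, a Cox7a relative, stood at 272 CPM in cKO and 222 CPM in control (1.23, 1.17 to 1.29). Ndufs6, a zinc-binding accessory subunit of complex I, stood at 71.2 CPM in cKO and 58.7 CPM in control (1.21, 1.11 to 1.33). Ndufa4, named for complex I but now assigned to complex IV, stood at 229 CPM in cKO and 189 CPM in control (1.21, 1.15 to 1.28), and Ndufb2, another membrane-arm subunit, at 60.2 CPM in cKO and 50.3 CPM in control (1.20, 1.08 to 1.33). All 6 intervals lay above 1 and none reached 1.5. The 6 ratios were also above 1 within clusters 0 and 3. Ndufb6 was at 0.729 (0.282 to 2.69) in cluster 2 and 0.867 (0.293 to 3.475) in cluster 4. Ndufs6 (0.826, 0.338 to 2.43) and Ndufa4 (0.960, 0.601 to 1.61) were also below 1 in cluster 4. The intervals of these values below 1 all included 1.

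Among the 6 lowest ratios only that of Cox7b had an interval below 1. Cox7b, an X-linked small subunit of complex IV (chromosome X, 106015700 to 106022450), stood at 132 CPM (5016 UMIs) in cKO and 152 CPM (1377 UMIs) in control, a ratio of 0.870 (0.820 to 0.924). Uqcrq, a small subunit of complex III, stood at 149 CPM in cKO and 156 CPM in control (0.955, 0.901 to 1.01). Ndufa12, an accessory subunit of complex I, stood at 71.4 CPM in cKO and 74.5 CPM in control (0.958, 0.880 to 1.04). Atp5o, the stalk subunit OSCP of ATP synthase, stood at 112 CPM in cKO and 117 CPM in control (0.962, 0.899 to 1.03). Atp5md, a small membrane subunit of ATP synthase, stood at 99.1 CPM in cKO and 103 CPM in control (0.965, 0.898 to 1.04), and Ndufc1, a membrane-arm subunit of complex I, at 85.4 CPM in cKO and 88.3 CPM in control (0.968, 0.895 to 1.05). Within clusters the interval of Cox7b included 1 in all 4, with ratios of 0.921 (0.757 to 1.13) in cluster 0, 1.60 (0.682 to 4.93) in cluster 2, 1.15 (0.911 to 1.42) in cluster 3 and 0.908 (0.510 to 1.74) in cluster 4. In cluster 0 Atp5o stood above 1 (1.34, 1.04 to 1.77), as did Uqcrq (1.14, 0.927 to 1.41), Ndufa12 (1.09, 0.813 to 1.49) and Atp5md (1.18, 0.922 to 1.54) with intervals that included 1. Atp5o was below 1 in cluster 2 (0.66, 0.36 to 1.39), cluster 3 (0.85, 0.63 to 1.13) and cluster 4 (0.63, 0.35 to 1.19), with intervals that included 1. In clusters 2, 3 and 4 Atp5md stood at 0.97, 1.09 and 0.52, Uqcrq at 0.98, 1.20 and 1.00, and Ndufa12 at 1.41, 1.27 and 1.42.

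Of the 5 large subunits, Cox4i1 and Sdha had intervals above 1 in microglia. Cox4i1 stood at 522 CPM in cKO and 445 CPM in control, a ratio of 1.17 (1.13 to 1.21), and was the most abundant gene of the set in both. Sdha stood at 102 CPM in cKO and 86.0 CPM in control (1.19, 1.10 to 1.29). Uqcrc1 (78.4 CPM in cKO, 76.3 CPM in control, 1.03, 0.946 to 1.12), Atp5b (233 CPM in cKO, 230 CPM in control, 1.01, 0.962 to 1.06) and Ndufs1 (37.1 CPM in cKO, 36.8 CPM in control, 1.01, 0.895 to 1.14) had intervals that included 1.

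**Figure D3:**
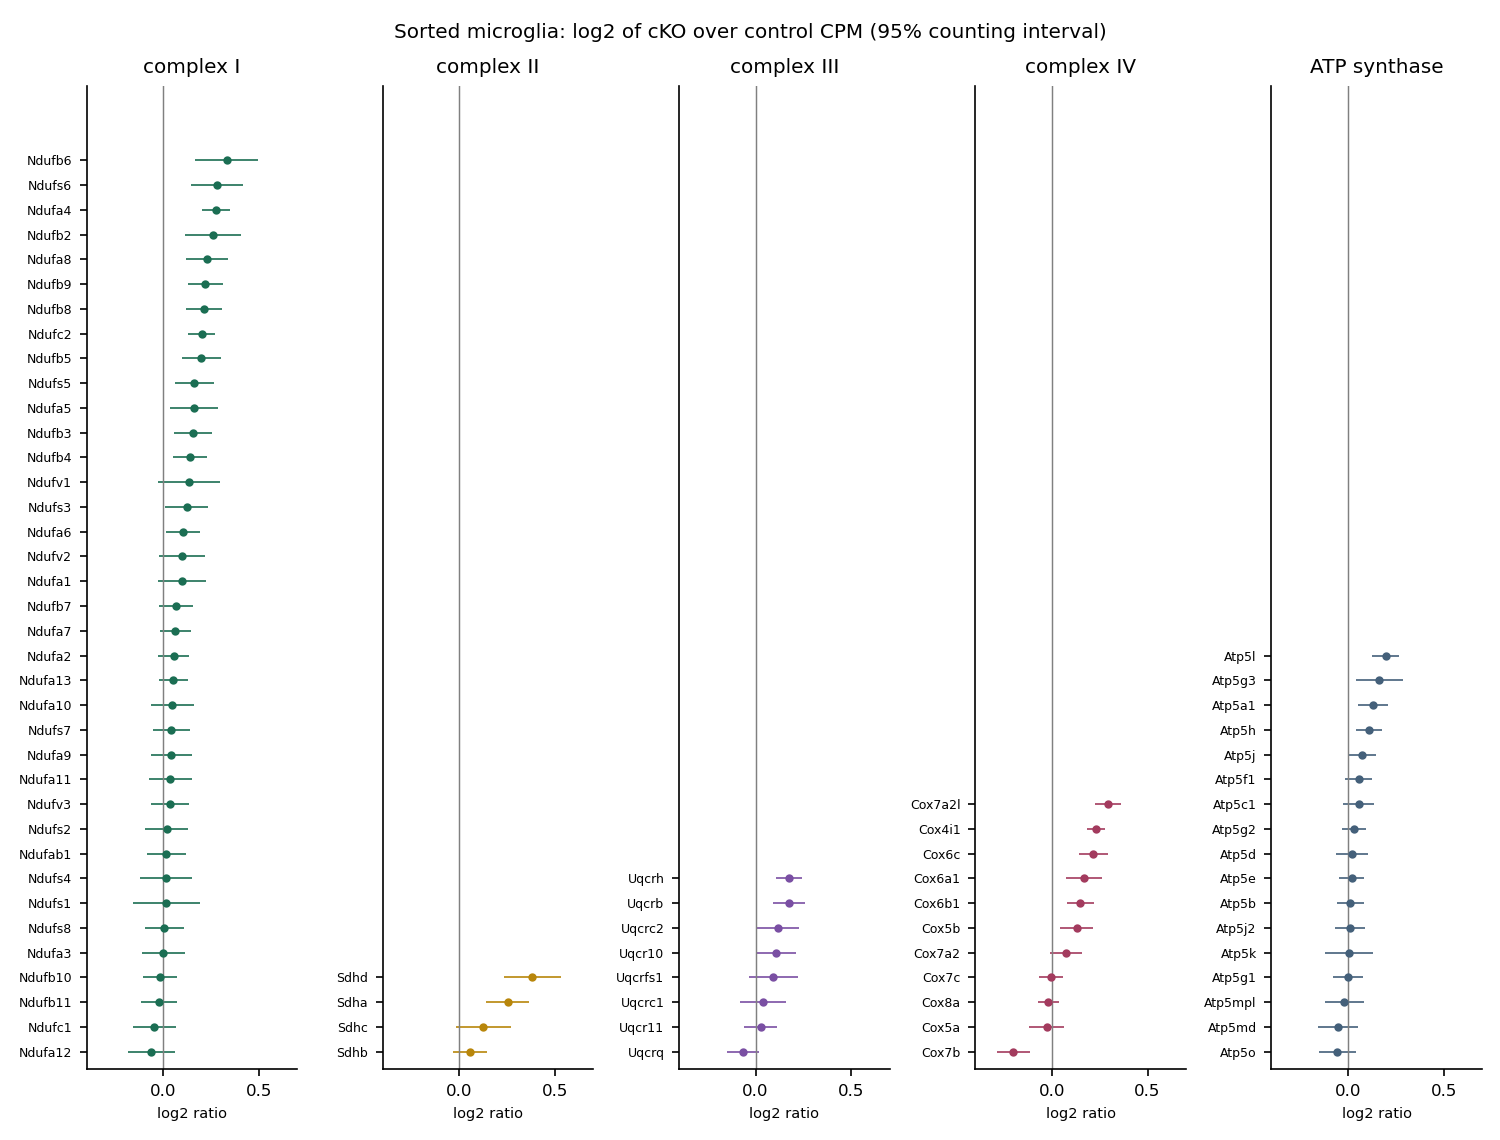
Log2 of the cKO to control CPM ratio in sorted microglia, with 95% counting intervals, for the 77 genes with at least 20 CPM in 1 library, 1 panel per complex, genes sorted by value. Points lie between Cox7b (ratio 0.870) and Sdhd (ratio 1.30), with 64 of 77 above the line.

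The summed ratio was larger within clusters 0 and 3 than over all microglia-like cells and smaller within cluster 4. In cluster 2 it was 1.13 (1.05 to 1.23), an interval that included the 1.07 over all microglia-like cells. Most clusters held few cells of 1 genotype. Cluster 0, led by histone genes and Lpl, held 5380 cKO cells (median 4966 UMIs) and 318 control cells (median 2016 UMIs). There 73 of 77 ratios were above 1, against 45.2% of all genes, and the median log2 ratio was 0.27 against -0.04 for all genes. The genes took 1.14% of UMIs in cKO and 0.961% in control cells of that cluster, a ratio of 1.19 (1.16 to 1.21). In it 2 of 77 were past 1.5-fold, against 11.6% of all genes: Ndufb6 at 2.14 (1.33 to 3.69) and Ndufs6 at 1.59 (1.12 to 2.33). The interval lay above 1 for 26 of the 77 genes and below 1 for 0. The same counts over all genes of this cluster were not made, so these have no share to be read against.

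Cluster 3, led by Fos and Calr, was the reverse in make-up, with 198 cKO cells (median 2173 UMIs) and 5789 control cells (median 1376 UMIs). There 68 of 77 ratios were above 1, against 44.8% of all genes, with a median log2 ratio of 0.22, and the summed share was 1.27% in cKO and 1.08% in control (ratio 1.17, 1.14 to 1.20). Ndufv1, the flavin-binding NADH-oxidising subunit of complex I, was past 1.5-fold at 1.65 (1.12 to 2.35), 1 of 77 against 18.2% of all genes. Cluster 2, led by Lyz2, had 1685 cKO and 44 control cells, 48 of 77 ratios above 1 (40.2% of all genes) and 25 past 1.5-fold (43.9%). Cluster 4, led by interferon-response genes, had 103 cKO and 58 control cells, 35 of 78 ratios above 1 (45.0%), 16 past 1.5-fold (43.8%) and a summed ratio of 0.954 (0.893 to 1.02). Clusters with few cells of 1 library rest on few UMIs, a cluster mostly of 1 library may be that library, and the cKO cells had more UMIs in all 4. The part of depth in these ratios was not tested; among microglia-like cells with at least 1000 genes the summed ratio was 1.04 (1.03 to 1.06).

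The share also differed between clusters. The low-UMI cluster held 1337 cKO cells in which the genes took 0.300% of UMIs. In cKO cells of the 5 microglia-like clusters they took 1.11% to 1.34%. The mtDNA-encoded chain genes took 1.85% in the low-UMI cluster. All 18 microglia markers stood in at least 25% of the cells of that cluster, which was set aside for its low UMIs. Cluster 6, led by Ttr and other choroid plexus genes, held 34 cKO and 15 control cells with shares of 5.20% and 6.08%. The 82 cKO cells of cluster 7, led by Fabp7 and Pdgfra, had 2.02%. These are values of clusters formed from the same cells and carry no test.

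**Figure D4:**
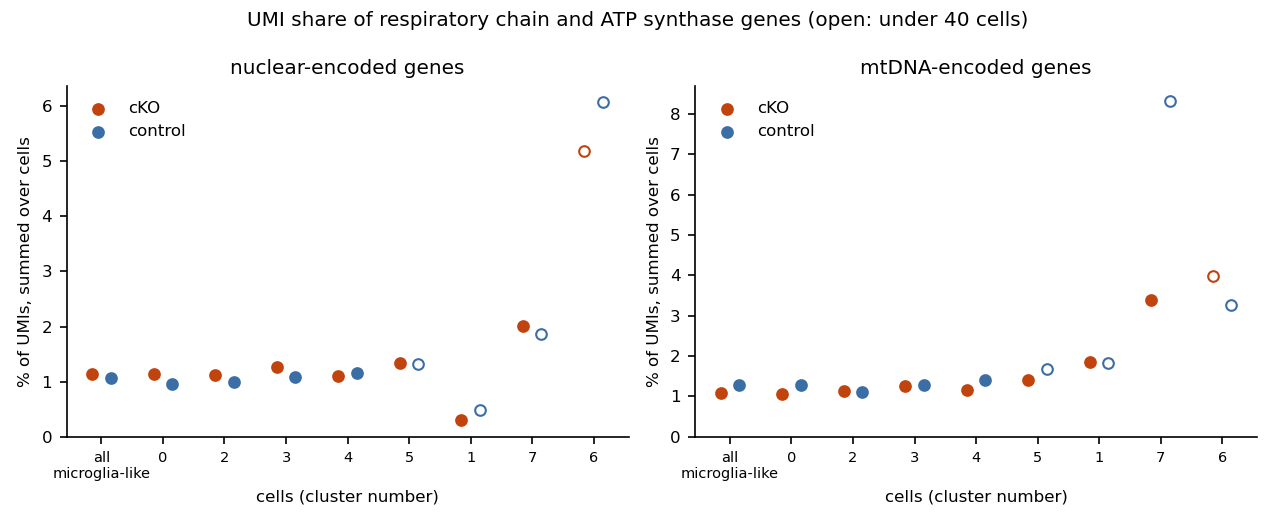
Share of UMIs, summed over cells, taken by the nuclear-encoded genes (left) and by the 13 mtDNA-encoded chain genes (right) in all microglia-like cells and in each cluster, for cKO and control cells; open circles mark groups under 40 cells. Microglia-like clusters lie near 1% in the left panel, the low-UMI cluster 1 at 0.300% in cKO cells and cluster 6 at 5.20% in cKO cells.

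In the Atp5g group, microglia and whole forebrain differed in which gene led, while the genotypes had close shares. The 3 Atp5g genes encode the same mature c subunit of the ATP synthase rotor with different import sequences. In microglia Atp5g2 supplied 54.2% of their UMIs in cKO and 54.5% in control, and Atp5g3 14.3% in cKO and 13.1% in control. In forebrain, by reads per exonic length, Atp5g3 supplied 60.6% ± 1.49 in cKO and 59.7% ± 1.30 in control, and Atp5g2 25.6% ± 1.68 in cKO and 26.4% ± 1.00 in control (SD, n = 7 and 6). Atp5g1 supplied 31.5% in cKO and 32.4% in control microglia, and 13.8% ± 0.662 in cKO and 13.9% ± 1.35 in control forebrain. UMI shares come from transcript ends and forebrain shares from whole exons, so part of a difference between the assays cannot be told apart from that of the tissues. Exonic length joins all annotated exons: 4912 bases for Atp5g1, 1675 for Atp5g2 and 2181 for Atp5g3. Before division by length, control forebrain means were 85.7 CPM for Atp5g1, 55.9 CPM for Atp5g2 and 164 CPM for Atp5g3. The order of Atp5g1 and Atp5g2 in forebrain thus depends on that length.

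Cox7a2l supplied 62.5% of Cox7a-family UMIs in cKO and 58.9% in control microglia, with intervals that did not overlap (61.7% to 63.2% in cKO, 57.2% to 60.5% in control). Cox7a2, the broadly expressed form, made up 37.4% in cKO and 41.0% in control microglia. In forebrain Cox7a2l supplied 43.5% ± 1.22 in cKO and 43.1% ± 2.52 in control. The muscle-type Cox7a1 had 20 UMIs in cKO and 3 in control microglia, and under 1% of the reads per length in forebrain (0.777% in cKO, 0.975% in control).

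The muscle-type form Cox6a2, whose exons overlap the integrin gene Itgad on the opposite strand, supplied 6.13% (5.51 to 6.78) of Cox6a UMIs in cKO and 5.86% (4.60 to 7.34) in control microglia, from 345 and 70 UMIs, against 1.46% ± 0.203 in cKO and 1.53% ± 0.341 in control forebrain. Cox6b2 supplied 1.34% (1.12 to 1.59) of Cox6b UMIs in cKO and 0.777% (0.445 to 1.26) in control microglia, from 129 and 16 UMIs, and 1.26% ± 0.200 of reads per length in cKO and 1.06% ± 0.259 in control forebrain. The microglia values are 3.39 CPM in cKO and 1.76 CPM in control, a ratio of 1.93 (1.14 to 3.47) below the 20 CPM limit. Within cluster 0 the ratio was 0.644 (0.244 to 2.41), an interval that included 1. Cox4i2, the oxygen-sensitive lung form, had 1 UMI in each library, and Cox8b had 2 in cKO and 0 in control. Ndufa4l2, a target of hypoxia signalling, and the testis-type genes Cox8c and Cox7b2 had 0 UMIs in both, which allows up to 0.0789 CPM in cKO and 0.330 CPM in control (3 counts of the total). In forebrain Ndufa4l2 supplied 2.28% ± 0.389 of the Ndufa4 pair in cKO and 2.38% ± 0.434 in control.

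**Figure D5:**
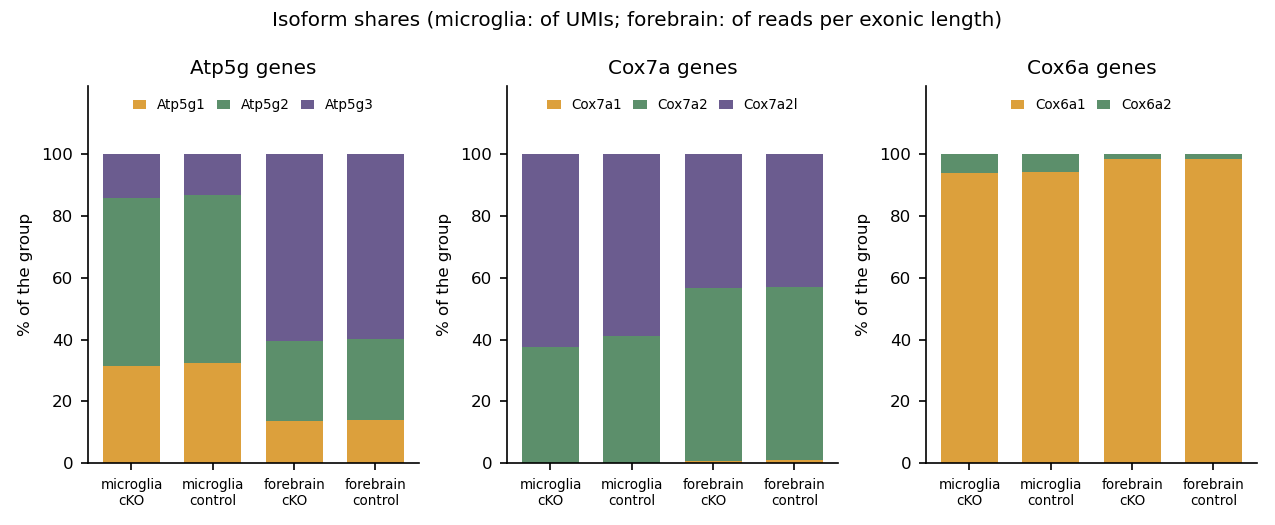
Share of each isoform within the Atp5g, Cox7a and Cox6a groups, in % of UMIs for the cKO and control microglia libraries and in % of reads per exonic length for forebrain (means of 7 cKO and 6 control libraries). Atp5g2 leads in microglia (54.2% in cKO) and Atp5g3 in forebrain (60.6% in cKO), with near-equal bars for the 2 genotypes.

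The order of levels also differed between the sources. Among the 77 genes measured in both, the Spearman rho between control forebrain CPM per kb of exon and control microglia CPM was 0.29, a description over genes. Cox8a and Cox6a1 led in forebrain (both 362 CPM per kb in control), ahead of Atp5a1 (288), Atp5b (270) and Cox4i1 (238). Cox4i1 led in control microglia (445 CPM), ahead of Cox8a (373), Atp5g2 (300.2), Cox7c (291) and Atp5e (256). Cox6a1 stood at rank 39 in microglia and Atp5g2 at rank 57 in forebrain. Exonic length here joins all annotated exons, which lowers the per-length level of genes with long minor transcripts such as Ndufb2. The log2 changes in forebrain and the log2 ratios in microglia had a rho of 0.09 over the 77 genes and 0.05 over all 6599 genes in both.

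The other genes of mitochondrial respiration were taken from 7 fixed lists. No gene of these lists was called in forebrain, where 0.33% of all genes were. None was 1.5-fold apart in microglia, where 3.11% of all genes were. Beside the counts per direction below, 50.6% of all genes lay above 0 in forebrain and 60.3% had ratios above 1 in microglia. Of 12 tested mtDNA-encoded chain genes 0 lay above 0 in forebrain, with a median log2 change of -0.10; mt-Nd3 (-0.32 ± 0.17) and mt-Co3 (-0.31 ± 0.15) lay lowest. In microglia mt-Atp8 (ratio 0.716, 0.668 to 0.769) and mt-Nd3 (0.748, 0.715 to 0.783) lay lowest and mt-Co1 (1.10, 1.07 to 1.12) and mt-Nd6 (1.00, 0.873 to 1.16) highest. Their counts are uncertain where nuclear copies of mtDNA share reads: mt-Co3 had 57.4 CPM in cKO and 71.1 CPM in control forebrain beside 13910 CPM in cKO and 14550 CPM in control for mt-Co1, while in microglia mt-Co3 was the higher of the pair (1583 CPM in cKO and 1902 CPM in control).

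Of 46 tested assembly factors 29 lay above 0 in forebrain (median 0.04). Cox17, the copper chaperone of complex IV, stood at 6.65 ± 0.528 CPM in cKO and 4.96 ± 0.516 CPM in control (SD, n = 7 and 6), a log2 change of 0.42 ± 0.10 with edgeR adjusted p = 0.110. Ndufaf6 followed at 0.25 ± 0.10, and Cox20 (-0.23 ± 0.37) and Ndufaf4 (-0.09 ± 0.07) lay lowest. In microglia 22 of 30 assembly factors had ratios above 1, led by Sdhaf4 (1.22, 1.08 to 1.37) and Coa5 (1.21, 1.05 to 1.41), with Sdhaf1 (0.870, 0.767 to 0.991) and Cox16 (0.884, 0.820 to 0.954) lowest. Of 14 regulators of chain genes 4 lay above 0 in forebrain, from Hif1a (-0.13 ± 0.07) and Gabpb1 (-0.12 ± 0.09) to Polrmt (0.07 ± 0.06) and Esrra (0.10 ± 0.11). In microglia 6 of 10 had ratios above 1, with Nrf1 (0.890, 0.790 to 1.00) and Pprc1 (0.933, 0.796 to 1.10) lowest and Hif1a (1.13, 1.05 to 1.21) and Gabpb1 (1.12, 0.974 to 1.29) highest. The gene Nrf1 encodes the factor whose core was searched in the promoter windows.

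Electron carriers and coenzyme Q synthesis genes lay above 0 in 13 of 16 in forebrain, from Pdss1 (-0.09 ± 0.11) and Etfdh (-0.06 ± 0.06) to Coq5 (0.15 ± 0.07) and Etfb (0.45 ± 0.24), and above 1 in 5 of 6 in microglia, from Cyc1 (0.958, 0.884 to 1.04) and Etfb (1.00, 0.933 to 1.08) to Cycs (1.07, 0.980 to 1.18) and Etfa (1.33, 1.17 to 1.52). Citric acid cycle genes lay above 0 in 12 of 17 in forebrain, from Sucla2 (-0.03 ± 0.04) and Ogdh (-0.03 ± 0.04) to Idh3g (0.11 ± 0.05) and Idh2 (0.14 ± 0.06), and above 1 in 11 of 17 in microglia, from Idh2 (0.836, 0.781 to 0.895) and Dlst (0.842, 0.785 to 0.904) to Dld (1.16, 1.03 to 1.30) and Idh3a (1.26, 1.08 to 1.48). Mitophagy and dynamics genes lay above 0 in 6 of 14 in forebrain, with Fundc1 (-0.15 ± 0.07) and Bnip3 (-0.15 ± 0.07) lowest and Pink1 (0.08 ± 0.07) among those above 0, and above 1 in 9 of 11 in microglia. There Bnip3, a mitophagy receptor induced by low oxygen, stood at 40.5 CPM in cKO and 30.5 CPM in control (1.33, 1.17 to 1.52), with Pink1 (0.879, 0.778 to 0.995) and Phb2 (0.945, 0.874 to 1.02) lowest. Mitochondrial carriers and channels lay above 0 in 6 of 9 in forebrain, from Ucp2 (-0.12 ± 0.08) and Vdac3 (-0.03 ± 0.05) to Vdac1 (0.06 ± 0.04) and Slc25a4 (0.07 ± 0.07), and above 1 in 8 of 8 in microglia, with Slc25a5 (1.08, 1.04 to 1.12) and Vdac2 (1.11, 1.06 to 1.16) lowest and Vdac1 (1.15, 1.07 to 1.24) among the others.

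Exons of 31 of the 90 genes overlap exons of another annotated gene, 23 of them a protein-coding gene on the opposite strand, so their bulk counts are uncertain. These include Cox4i1 (with Emc8), Ndufb6 (with Smim27), Ndufs6 (with Mrpl36) and Ndufb2 (with Braf and Gm42420). Genes left out of the set for the -ps in their symbol also carried bulk reads, such as Ndufb1-ps (5594 counts over the 13 libraries) and Ndufab1-ps (2653 counts). Whether they are processed copies was not checked.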

How the data were processed

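Forebrain values are read counts per Ensembl gene that the authors deposited, without normalization. Per the submitters' processing notes, HISAT2 2.0.5 aligned the reads to mm10 and featureCounts 1.5.0-p3 counted them; per the labels' protocols, poly-A RNA went into NEBNext Ultra II libraries. Annotation release, strand and multi-mapping settings: not given in the sources used here. Microglia values are deposited UMI counts per gene and barcode from 10x 3′ libraries, which Cell Ranger 6.1.0 produced, as the file headers record. Per-sample columns with no matching sample numbered 0.

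Bulk counts were filtered with filterByExpr, scaled by TMM and tested with the robust quasi-likelihood test of edgeR 4.0.16 (R 4.3.3) for genotype (two-sided), adjusted by Benjamini-Hochberg across all genes, with a threshold of 0.05; DESeq2 1.42.0 was an alternative. CPM is on TMM-scaled totals in forebrain and on summed UMIs in microglia. Positions, exonic lengths and GC content are from GENCODE M21 (GRCm38). Per-library deviations used log2(CPM + 0.5). The lowest chi-square per degree of freedom between libraries of 1 group was 2.74, so none repeated another within sampling noise.

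Cells with at least 500 genes and at most 10% mitochondrial UMIs were clustered together (scanpy 1.11.5, 2000 variable genes, 30 components, 15 neighbours, Leiden resolution 0.5); doublets were not removed. A cluster was microglia-like with at least 3 microglia markers in 25% of cells and no more markers of another class among its 10 leading genes; a cluster under 0.333 of its library's median UMIs stayed unnamed. UMIs were summed per library; 95% intervals are exact (Poisson, binomial or Clopper-Pearson) and cover counting error only. Promoter sequences are RefSeq's. Genes given library by library were 1 large subunit per complex, the 4 smallest p in forebrain, the 6 highest and 6 lowest ratios in microglia and the isoform groups; of other lists, the 2 farthest from 0 in each direction, of which a few are not reported here. The genes and lists were chosen with earlier results of these data known. Scripts were tested on simulated counts. Alternatives covered scaling, filters, DESeq2, a replicate block, GC and length correction, leaving out each library, cell filters and clusters.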

Additional observations from a re-analysis of the deposited data

Results flagged for a closer look

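Dixon's test at 95% was run on 34 sets of 6 or 7 forebrain libraries of 1 genotype, and in 10 of them the highest or lowest library stood apart; chance gives about 1 in 20, and the sets share libraries and genes. In 9 of the 10 the library was control 5. Its summed level of all 90 genes was 8553 CPM, against a median of 9278 CPM over the 6 control libraries. Complex I summed to 2230 CPM there against a median of 2386, complex III to 824.7 against 862, and ATP synthase to 3391 against 3642. Sdha stood at 373 CPM there against 409, and Cox4i1 at 302 CPM against 374, while the pseudogene Ndufb4c was high at 3.26 CPM against 1.78. The median deviation of the tested genes in control 5 was -0.138 on the log2 scale, and -0.105 after correction for GC content and length. The 10th was Ndufs3 in cKO 5, at 85.4 CPM against a median of 72.8 CPM over the 7 cKO libraries. Control 5 also had the highest mitochondrial share of counts of the 13 libraries, 4.86%, and cKO 5 the lowest, 3.60%. The part of these shares in the gene levels was not tested.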

How the results depend on the processing

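No alternative called any of the 90 genes in forebrain. The median log2 change was between 0.02 and 0.05 under the 7 alternatives other than leaving out a library, and -0.01 to 0.05 when each library was left out, below 0 only without cKO 5. Genes called over the whole table numbered 56 and 35 to 73 with 1 library left out; there were 22 with equal replicate numbers as a replicate block, and 52 with the block and GC and length correction. Only 1 of 6 pairs had a deviation correlation over 0.1 and own number correlated best in 2 of 6, so the block is no pairing the data bear out; it called 0 of the 90 genes. Signs of 3 genes with changes near 0 turned: Uqcrc1 to 0.006 under the block, Cox4i1 to -0.045 and Atp5b to -0.014 with GC and length correction (-0.041 and -0.008 with the block added). With 1 library left out Uqcrc1 ran from -0.035 to 0.018, Cox4i1 from -0.035 to 0.044, Atp5b from -0.025 to 0.038 and Sdha from -0.011 to 0.044.

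In microglia the median log2 ratio of 0.07 was 0.029 over all cells past the filter, 0.031 over all barcodes, 0.079 without the 5% of cells with most UMIs, 0.021 with median-ratio scaling, 0.08 with CPM outside mitochondrial and ribosomal protein genes, and 0.272, 0.205, 0.224 and -0.067 within clusters 0, 2, 3 and 4. The ratio of summed shares was 1.03 over all cells past the filter, 1.03 over all barcodes, 1.04 at 1000 genes or more, 1.03 with median-ratio scaling, 1.07 outside mitochondrial and ribosomal protein genes, and 1.19, 1.13, 1.17 and 0.954 within clusters 0, 2, 3 and 4. Genes past 1.5-fold numbered 2, 25, 1 and 16 in those clusters and 0 elsewhere. Clusters 2, 3 and 4, under 200 cells of 1 library, and the corrected deviations per library were added after the data were seen. A choroid plexus marker class was also added after the clusters were seen, and it kept cluster 6 out of the microglia-like cells.

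Depth limits most the members under 20 CPM in microglia, and the 44 control cells of cluster 2 and 58 of cluster 4. With 1 library per genotype, no microglia value separates genotype from library.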
